A study of Arabidopsis thaliana with 6 samples.

Results

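Very short internal exons, of 45 bases or fewer, were followed in RNA of Arabidopsis thaliana seedlings that lack 2 splicing-associated proteins. The exon tables held 154600 exons, of which 98716 lay inside nuclear genes as neither the first nor the last exon of their gene. Of these, 3558 were 45 bases or shorter, and the 2686 with 10 or more reads over the 6 libraries were taken as the short exons described here. They lay in 2169 genes, most often as the 1 short exon of the gene (1741 genes). The Na+/H+ antiporter gene NHX5 (AT1G54370) held 5 and AT1G71810 held 6.

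The tested plants were the acinus-2 pnn double mutant, called acinus-2 pinin-1 in the study, which carries T-DNA insertions in an exon of AtACINUS (AT4G39680) and in an exon of AtPININ (AT1G15200), and they were set against WT. Both were Col-0 seedlings grown in continuous light, labelled as 12 days old, although the study's methods give a later age, with total RNA of whole seedlings in 3 libraries per genotype. No single mutant was sequenced, so the loss of 1 gene cannot be told apart from the loss of the other. Values below are in the order acinus-2 pnn replicates 6, 7 and 12, then WT replicates 2, 4 and 5. In RNA of whole seedlings, fewer cells of a type and less RNA per cell cannot be told apart.

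Introns are removed by the spliceosome, which recognises the splice sites at both ends of an exon. The U1 particle binds at the end of an exon, and the U2AF proteins bind ahead of its start. In a very short exon these binding sites lie close together, and such exons often depend on helper proteins that bind the exon or its flanks. ACINUS and PININ each form a complex with SAP18 and an RNA-binding partner, SR45 in plants, and these complexes sit near the exon junction complex that marks joined exons. Among plant short exons, the 9-base exon of the invertase genes and that of AP2-type transcription factors are the best-known examples.

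The sequences of the exons on which the results turn are given from TAIR10.1 by RefSeq, 5′ to 3′ on the strand of the gene, with the exon in capitals and 20 bases of intron on each side in lower case. The first set holds the 9-base exons that passed 10 reads. In invertases, enzymes that split sucrose, this exon codes for residues of the active site. In ANT, which promotes organ growth, and WRI4, which controls wax synthesis, it lies within an AP2 domain.
ATBETAFRUCT4 AT1G12240 exon 2, chr1:4154430-4154438, plus strand: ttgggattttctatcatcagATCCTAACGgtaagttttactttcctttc
AT1G62660 exon 2, chr1:23200643-23200651, plus strand: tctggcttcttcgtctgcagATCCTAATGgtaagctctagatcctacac
ATBFRUCT1 AT3G13790 exon 2, chr3:4535501-4535509, minus strand: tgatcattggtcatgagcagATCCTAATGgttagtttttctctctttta
ANT AT4G37750 exon 4, chr4:17741106-17741114, plus strand: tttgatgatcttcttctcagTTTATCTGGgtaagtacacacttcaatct
WRI4 AT1G79700 exon 3, chr1:29993080-29993088, minus strand: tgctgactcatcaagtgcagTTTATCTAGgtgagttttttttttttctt

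The second set holds a pair of neighbouring exons of 27 and 24 bases in each of the 3 iron superoxide dismutase genes, whose products remove superoxide, mainly in plastids. FSD3 is shown because usage of both of its exons was called higher in acinus-2 pnn, calls that several alternatives did not keep. FSD1 and FSD2 are shown as its relatives.
FSD3 AT5G23310 exon 6, chr5:7851882-7851908, plus strand: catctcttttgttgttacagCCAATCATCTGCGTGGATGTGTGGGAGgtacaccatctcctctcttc
FSD2 AT5G51100 exon 7, chr5:20773752-20773778, minus strand: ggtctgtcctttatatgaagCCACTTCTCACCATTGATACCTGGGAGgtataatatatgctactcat
FSD1 AT4G25100 exon 8, chr4:12884956-12884982, minus strand: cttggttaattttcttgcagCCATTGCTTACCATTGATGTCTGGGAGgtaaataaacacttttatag
FSD3 AT5G23310 exon 7, chr5:7851997-7852020, plus strand: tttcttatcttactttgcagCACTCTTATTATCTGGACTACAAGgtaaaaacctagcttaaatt
FSD2 AT5G51100 exon 8, chr5:20773625-20773648, minus strand: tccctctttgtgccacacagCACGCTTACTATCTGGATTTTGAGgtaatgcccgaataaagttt
FSD1 AT4G25100 exon 9, chr4:12884836-12884859, minus strand: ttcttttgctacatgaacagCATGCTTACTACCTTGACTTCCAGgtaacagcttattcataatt
The 27-base exons of FSD1 and FSD2 had 22 identical bases, and that of FSD3 had 18 identical bases with FSD1 and 17 with FSD2. The 24-base exons had 17 or 18 identical bases in each of the 3 pairings.

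The third set holds the exon with the clearest change of skipping, in the noncoding RNA AT4G04223, the most often skipped exon of RAP2.7 (TOE1), a repressor of flowering, and an exon of NAP1;2, a histone chaperone, that appeared in some libraries and not in others.
AT4G04223 exon 2, chr4:2036892-2036933, plus strand: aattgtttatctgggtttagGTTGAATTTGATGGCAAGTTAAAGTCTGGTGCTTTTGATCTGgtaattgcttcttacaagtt
RAP2.7 AT2G28550 exon 6, chr2:12226969-12227013, minus strand: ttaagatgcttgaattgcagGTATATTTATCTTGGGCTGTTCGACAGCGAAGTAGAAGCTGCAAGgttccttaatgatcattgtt
NAP1;2 AT2G19480 exon 11, chr2:8440872-8440889, plus strand: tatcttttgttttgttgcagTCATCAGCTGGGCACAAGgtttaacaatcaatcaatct

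The shortest of the 2686 exons had 8 bases and the median 39 bases. For fewer than 10 reads, 872 short internal exons were left out, 483 of them with no read, and the share left out was largest among the shortest. Up to 15 bases, 22 of 96 exons (22.9%) passed, against 434 of 686 (63.3%) at 16 to 30 bases and 2230 of 2776 (80.3%) at 31 to 45 bases. A spliced read was counted only with about 8 or more bases on each side of a junction, and the 22 exons under 8 bases had no exon read.

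On TAIR10.1, 2679 of the 2686 exons could be placed and 2637 equalled an annotated exon. The labelled class held, with exceptions. Although internal by exon number, 7 were the first or last exon of each annotated transcript that holds them. Most were coding, with 2570 wholly and 45 partly in coding sequence. An annotated transcript skipped 136 of them (5.08%), against 1.03% of 81502 longer internal exons with 10 or more reads.

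Their splice sites were those of other exons, with small shifts of composition. AG ahead of the exon and GT after it flanked 97.5% of the short exons and 97.5% of the longer ones. The base ahead of that AG was C in 75.0% of short exons, against 64.3% of longer ones. T made up 50.4% of the 20 bases ahead of the last 3 intron bases, against 48.2%, and G stood at the fifth intron base after 55.7%, against 50.8%. Lengths in multiples of 3 bases, which keep the reading frame when an exon is skipped, were 42.8% of short and 44.5% of longer exons. The introns around them had median lengths of 101 bases before and 99 bases after, against 100 and 97 bases around longer exons. These are descriptions over exons, many of which share a gene, and carry no test.

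Skipping was measured as a rate: reads that join the 2 neighbours directly, over those reads plus the mean of the reads joining the exon to the neighbour on each side. Inclusion is the remainder. Reads on genes numbered 20796343 to 25501031 per acinus-2 pnn library and 18890178 to 27622690 per WT library, with 3934519 to 5045031 and 3612783 to 5220667 spliced reads. Summed over the shoot markers RBCS1A, LHCB1.1 and LHCB2.1 and the root marker PYK10, the level was 8703 to 8982 CPM (reads scaled to library depth) in acinus-2 pnn against 10832 to 12030 CPM in WT. All 4 were lower in acinus-2 pnn, by log2 changes of −0.63 to −0.25 that did not reach a fold of 2, and their part in the results below was not tested. The flower genes AP1 and AG had 0 to 4 reads per library. The seed genes CRA1 and OLEO1 together had 2, 6 and 330 reads in acinus-2 pnn against 1, 1 and 1 in WT, so acinus-2 pnn replicate 12 stood apart in seed RNA.

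Most short exons were included in all spliced reads of both genotypes. Median inclusion was 100% in acinus-2 pnn and in WT. Reads joined 2541 of the 2686 exons on both sides, 102 on 1 side and 43 on neither side. No skipping read was seen for 2478. Of these, 2455 were joined, at a median of 108 joining reads per side, where 0 skipping reads allow a rate of up to 2.78% (3 counts, counting error only).

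Skipping rates above 5% were found for 96 of 2656 short exons in acinus-2 pnn (3.61%) and 91 of 2658 in WT (3.42%). Among longer internal exons they were found for 566 of 80625 in acinus-2 pnn (0.702%) and 515 of 80723 in WT (0.638%). By library the share of short exons was 3.38, 3.23 and 3.44% in acinus-2 pnn, against 3.21, 3.33 and 3.40% in WT. The libraries of the 2 genotypes overlapped, so the difference between genotypes was within the spread between replicates. With 3 libraries each, an exact permutation test cannot go below a p of 0.1, and none was run on this share. Above 50% were 61 short exons in acinus-2 pnn and 67 in WT. Among exons with 5 or more joining reads on each side, 9 were above 50% in acinus-2 pnn and 12 in WT, 38 were above 5% in acinus-2 pnn and 31 in WT, and pooled skipping was 0.382, 0.370 and 0.413% against 0.370, 0.389 and 0.372%.

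Recovery of the exons in spliced reads was lower for shorter exons. For each internal exon, its joining reads were set against the reads of the next junctions outward in the same gene, which needed 30 or more reads over the 6 libraries. This was done for all internal exons with such neighbours, also those under 10 reads. Above 120 bases the medians of the libraries were 101.2, 100.5 and 101.5% in acinus-2 pnn and 100, 101.6 and 101.4% in WT. At 41 to 45 bases they were 94.7, 95.1 and 94.5% against 93.6, 94.6 and 95.1%. At 23 to 25 bases they were 70.4, 79.8 and 79.6% against 69.4, 77.3 and 76.1%. Down to this length the ranges of the 2 genotypes overlapped or lay close together.

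Below 23 bases the recovery was lowest. At 19 to 22 bases (54 exons) the library medians were 30.3, 24.2 and 48.0% in acinus-2 pnn, against 43.8, 68.5 and 50.2% in WT. At 13 to 18 bases (32 exons) they were 0, 0 and 0% against 0, 0 and 1.70%, and at 8 to 12 bases (18 exons) 0, 0 and 0% against 0, 2.51 and 1.12%. Of exons with junction reads, a rate above 5% was found for 3 of 13 at 8 to 12 bases in acinus-2 pnn and 2 of 12 in WT, and for 7 of 23 in each genotype at 13 to 18 bases. At 1 to 7 bases it was 4 of 4 and 5 of 5. Reads of exons under 23 bases were thus fewer than those of the surrounding exons in both genotypes, and the cause was not tested. The class of 8 to 12 bases holds fewer than 20 exons, as does that of 1 to 7 bases (12 exons), where all library medians were 0%. Without both, the medians of the shortest class were 0 to 1.70%.

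**Figure D1:**
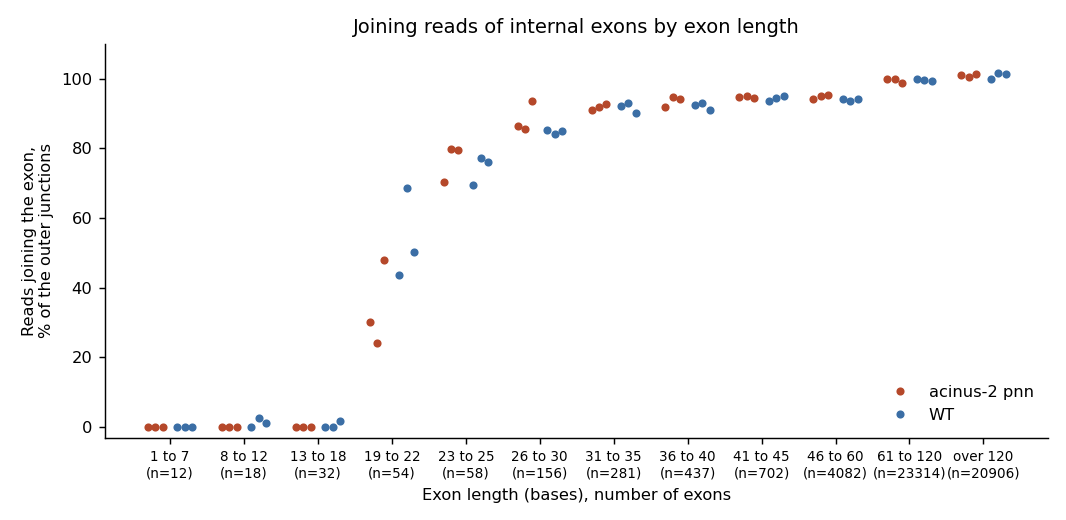
Joining reads per side as a percent of the reads of the outer junctions (y axis), by exon length in bases (x axis), with 1 point for the median over exons in each acinus-2 pnn and each WT library. Above 120 bases all 6 medians lay between 100 and 101.6%, and at 13 to 18 bases between 0 and 1.70%.

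The share of exons skipped at a rate above 5% was higher in each class up to 45 bases than above, in both genotypes, though it did not rise at each step. Joining reads are part of the rate, and their recovery was lowest below 23 bases. The part of that recovery in this share was not tested. It was 0.273% in acinus-2 pnn and 0.235% in WT above 120 bases. At 41 to 45 bases it was 2.87% and 2.58%, and at 26 to 30 bases 8.50% and 7.14%. At 23 to 25 bases it was 15.1% and 14.8%, and at 19 to 22 bases 8% and 11.8%. At 13 to 18 bases it was 7 of 23 exons in each genotype (30.4%). Counts in the classes under 26 bases were small, from 2 to 8 exons per genotype.

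**Figure D2:**
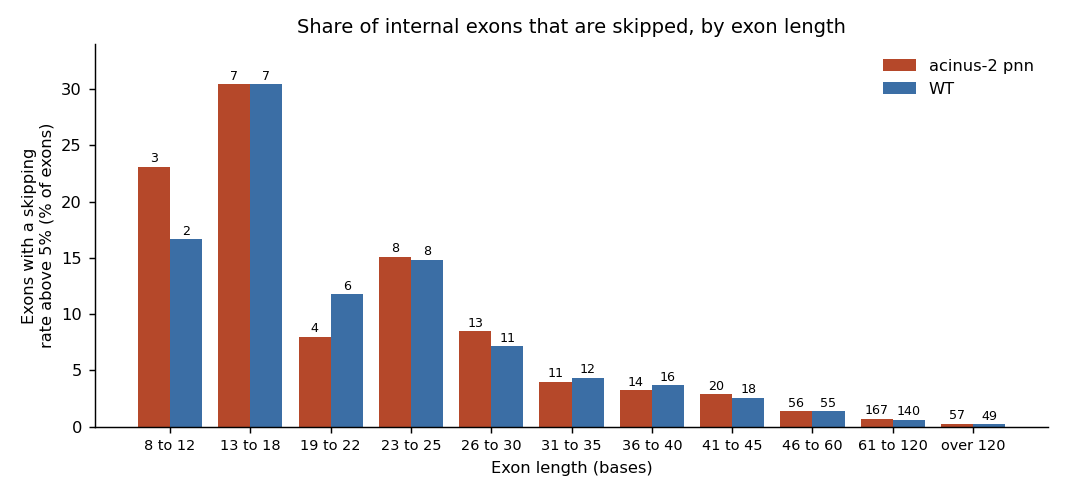
Percent of internal exons with a skipping rate above 5% (y axis, from 0) by exon length in bases (x axis), 1 bar for acinus-2 pnn and 1 for WT per class, with the number of skipped exons on the bar. The bars stand at 0.273% for acinus-2 pnn and 0.235% for WT above 120 bases, and at 30.4% for both at 13 to 18 bases.

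Very short exons were also joined in some libraries and missing from others. This was counted for exons whose outer junctions had 10 or more reads each in every library. Of 31 exons of 8 to 18 bases, 18 (58.1%) were joined in 1 to 5 of the 6 libraries, against 11 of 182 (6.04%) at 19 to 30 bases, 7 of 947 (0.739%) at 31 to 45 bases and 28 of 32583 (0.0859%) above 45 bases. Of the 36 such exons up to 45 bases, 25 were missing from at least 1 library of each genotype, 8 from acinus-2 pnn libraries alone and 3 from WT libraries alone. This split was not counted for the exons above 45 bases and was not tested, so it is no result about genotype. The 9-base exon of ANT was the 1 exon joined in all acinus-2 pnn and in no WT library, and none showed the opposite. It had 1, 23 and 1.5 joining reads per side in acinus-2 pnn.

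A few examples were chosen after their values were seen. The 15-base exon 3 of CCD1 (AT3G63520), a carotenoid-cleaving enzyme, had 0, 6.5 and 10.5 joining reads per side in acinus-2 pnn against 12.5, 0 and 12.5 in WT. The 19-base exon 4 of ARF3 (AT2G24765), a small GTPase, had 0, 16 and 14 against 9, 14.5 and 16. CCD1 exon 3 was thus absent from 1 library of each genotype, and ARF3 exon 4 from 1 acinus-2 pnn library. Outer junctions of CCD1 had 46.5, 56.5 and 72 reads in acinus-2 pnn against 117, 149 and 130.5 in WT, and those of ARF3 had 59 to 113. The 14-base exon 12 of PTB3 (AT1G43190), a splicing regulator that binds pyrimidine tracts, had 0, 4 and 0 against 3.5, 0 and 4.5 joining reads per side, while its outer junctions had 26.5 to 44.5.

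The 18-base exon 11 of NAP1;2 (AT2G19480), also chosen after its values were seen, had 0, 67 and 494 reads in acinus-2 pnn against 66, 66 and 75 in WT. Joins to exon 10 numbered 0, 64 and 454 against 63, 65 and 72, and joins to exon 12 were 0, 0 and 425 against 0, 0 and 0. Acinus-2 pnn replicate 6 thus held no read of the exon, and replicate 12 was the 1 library that joined it on both sides. Skipping reads were 19, 14 and 37 against 14, 21 and 20. The neighbouring exon 10 had 501, 444 and 996 reads against 395, 554 and 582. Replicate 12 was also the library with seed RNA, and the part of that RNA in this result was not tested. Exon usage, the share of the gene's exon reads that lie on this exon, did not pass edgeR's quasi-likelihood test (adjusted p = 0.769).

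The exon skipping test asked whether the ratio of skipping to joining reads changed with genotype. It used edgeR's quasi-likelihood test over all 743 internal exons with 10 or more skipping reads, of which 74 were short. A call needed a Benjamini-Hochberg adjusted p under 0.05, a fold above 2 and a rate above 5% in the genotype with more skipping. Skipping fell in acinus-2 pnn for 2 of the 74 short exons (2.70%), against a background of 0.404% of all tested exons, and rose for 0 (background 0%). At an unadjusted p under 0.05 there were 8 of 74 (10.8%), in either direction, against 44 of 743 (5.92%), and DESeq2 called 0 in both. The median log2 change was −0.15 over the 74 and −0.04 over all 743.

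AT4G04223 is a noncoding RNA whose 42-base exon 2 of 3 was skipped less in acinus-2 pnn. Skipping reads were 51, 52 and 52 in acinus-2 pnn against 12, 27 and 24 in WT. Joins to exon 1 were 57, 67 and 70 against 4, 10 and 4, and joins to exon 3 were 54, 61 and 67 against 6, 10 and 7. The rate was 47.9, 44.8 and 43.2% in acinus-2 pnn against 70.6, 73.0 and 81.4% in WT, and the genotypes did not overlap. The log2 change of the skipping to joining ratio was −1.89 (SE 0.50, edgeR's quasi-likelihood test, adjusted p = 0.0405). Reads of the whole RNA were 326, 359 and 383 in acinus-2 pnn against 47, 88 and 69 in WT, a log2 change of 2.45 (SE 0.13), so that both the skipped and the included form were more abundant in acinus-2 pnn.

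The call rests on most of the libraries. Leaving out acinus-2 pnn replicate 7 or 12, or WT replicate 2, 4 or 5, gave log2 changes of −2.01 to −1.63 and adjusted p of 0.0879 to 0.441, and with joins to exon 3 alone the adjusted p was 0.52, both by edgeR's quasi-likelihood test.

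**Figure D3:**
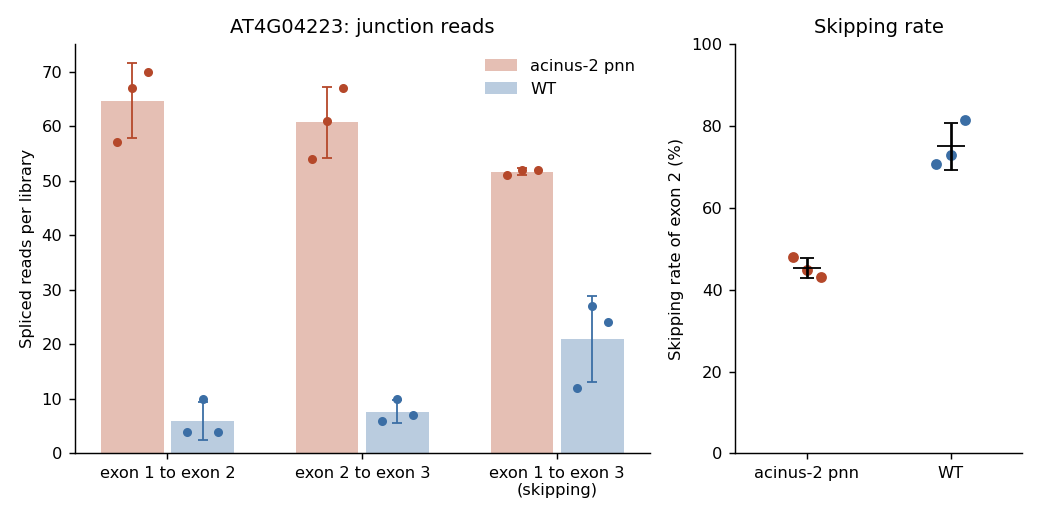
Reads per library of AT4G04223 that skip exon 2 or join it to each neighbour, and the skipping rate in percent (y axes), with acinus-2 pnn to the left of WT, points for libraries, the mean as a bar or line and whiskers for the SD (n = 3). The 3 acinus-2 pnn rates lay at 43.2 to 47.9%, below the 3 WT rates at 70.6 to 81.4%.

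The second call was the 37-base exon 2 of AT5G65685. Skipping reads were 10, 0 and 0 in acinus-2 pnn against 21, 28 and 24 in WT. Joins to exon 3 were 12, 7 and 13 against 6, 13 and 6, and no library joined it to exon 1. Skipping reads were thus lower in each acinus-2 pnn library than in each WT library, while joins overlapped. The log2 change was −3.49 (SE 0.91, edgeR's quasi-likelihood test, adjusted p = 0.0405). RNA of the gene had a log2 change of −0.95. The exon is held by 1 of 12 annotated transcripts. Without joins to exon 1, the reads do not show it as an exon included between its 2 neighbours. DESeq2 gave an adjusted p of 0.368, and with joins to exon 1 alone the exon did not pass by edgeR. The adjusted p by edgeR was 0.0879 to 0.561 without acinus-2 pnn replicate 7 or 12 or any 1 of the WT libraries. The log2 change was −7.94 without acinus-2 pnn replicate 6.

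Apart from AT4G04223, 20 tested exons were joined on both sides by 5 or more reads. Their log2 changes ran from −3.05 to 2.43 with SE from 0.50 to 1.49, and the lowest adjusted p was 0.72 in edgeR's quasi-likelihood test. Differences within these errors were not detectable at this depth.

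The largest changes up among the 74 rested on few reads, and none passed the test. Joining reads were absent from acinus-2 pnn in each of the 4. For exon 3 (34 bases) of AMSH2 (AT1G10600), a deubiquitinating enzyme, joins to exon 2 were 0, 0 and 0 in acinus-2 pnn against 4, 3 and 1 in WT, beside skipping reads of 8, 12 and 21 against 7, 12 and 11 (edgeR's quasi-likelihood test, adjusted p = 0.383). The others were exon 2 of AT5G22608 (24 bases), of AT4G03020 (30 bases) and of TRM12 (AT1G63670, 25 bases). The largest changes down were AT5G65685, exon 3 of AT1G35513 (43 bases), and exon 2 of AT1G66920 (24 bases) and of AT4G02210 (19 bases). Of these 4, AT5G65685 was the 1 that passed.

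Among short exons with 30 or more joining and skipping reads together, the 6 named for the highest skipping rate had no joining read in any library, a rate of 100%. Others tie at this rate, and the 6 come first by gene number. Exon 5 (20 bases) of DCP5 (AT1G26110), an mRNA decapping factor, had skipping reads of 142, 128 and 156 in acinus-2 pnn against 83, 164 and 141 in WT, and 7, 6 and 4 against 9, 4 and 8 exon reads. The others were exon 2 of ARI5 (AT1G05890, 43 bases) and of NEK1 (AT1G54510, 22 bases), exon 11 of AT1G21080 (27 bases) and of HUB2 (AT1G55250, 29 bases), and exon 3 of AT2G16940 (37 bases). In each of the 6, an annotated transcript holds the exon and another skips it. Of all 743 tested exons, 326 had no joining read, and for these the ratio test holds no information.

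Among the 2508 short exons with 5 or more joining reads on each side, 36 had a skipping rate above 5% over all libraries. Of these 11 were skipped above 50%, 8 at 10 to 50% and 17 at 5 to 10%. An annotated transcript skips 28 of them, and 16 are exon 2 of their gene. Lengths in multiples of 3 bases were 19 of the 36 (52.8%), against 43.2% of the other 2472.

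By skipping rate, the genotypes did not overlap for 2 of the 36 cassettes, exon 2 of AT4G04223 and of PP2C52 (AT4G03415, 22 bases). With 3 libraries per genotype some exons separate without any change. The share over all internal exons was not counted, so this count is no result about the cassettes. PP2C52, chosen after its values were seen, had 78.6, 71.1 and 79.2% in acinus-2 pnn against 81.8, 91.3 and 88.9% in WT. Its log2 change was −1.17 (SE 0.83) and did not pass edgeR's quasi-likelihood test (unadjusted p = 0.158). The genotypes overlapped for the 2 cassettes that follow. Exon 6 (45 bases) of RAP2.7 (AT2G28550) was skipped at 94.9, 91.5 and 91.9% in acinus-2 pnn against 93.2, 89.9 and 92.2% in WT, from 121, 107 and 131 skipping reads against 137, 151 and 160. Its log2 change was 0.21 (SE 0.50). Usage of this exon was 0.84, 1.12 and 1.03% of the gene's exon reads in acinus-2 pnn against 1.52, 1.36 and 1.34% in WT, without overlap, a log2 change of −0.49 (SE 0.22) that did not pass edgeR's quasi-likelihood test (unadjusted p = 0.034, adjusted p = 0.953). The 41-base exon 3 of AT1G28395, chosen after its values were seen as a case near equal use, was skipped at 42.6, 36.4 and 52.2% against 41.8, 39.4 and 41.1%, a log2 change of 0.22 (SE 0.57).

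Most short exons had too few skipping reads for that test, so exon usage was tested as well, the reads of an exon against all other exon reads of its gene. Usage rose in acinus-2 pnn for 4 of 2656 short exons tested (0.151%), against a background of 0.0221% of all 113267 exons tested, and fell for 0, against a background of 0.0212%, by edgeR's quasi-likelihood test with an adjusted p under 0.05 and a fold above 2. Of the 4, that in ANT had reads in acinus-2 pnn alone, and exons 6 and 7 of FSD3 are neighbours that share reads. The 4 are thus not independent rises, and the share counts exons, not genes. DESeq2 called 0 in either direction. At an unadjusted p under 0.05 there were 165 short exons (6.21%), against 5.16% of all exons. The median log2 change of usage was −0.0082 over short exons and −0.00090 over all exons tested.

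In FSD3 (AT5G23310), which protects chloroplast nucleoids from superoxide, usage of the neighbouring exons 6 and 7 was called higher in acinus-2 pnn. Exon 6 (27 bases) had 97, 72 and 104 reads in acinus-2 pnn against 51, 15 and 14 in WT, and exon 7 (24 bases) had 89, 66 and 99 against 42, 11 and 16. WT replicate 2 lay nearest to acinus-2 pnn in both. Reads that join exon 6 to exon 7 numbered 73, 56 and 82 against 37, 0 and 0, so that 2 of the WT libraries held none. The gene's last exon had 232, 195 and 282 against 130, 174 and 166 reads.

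Usage of FSD3 exon 6 was 7.11, 6.10 and 6.94% of the gene's exon reads in acinus-2 pnn against 5.64, 1.72 and 1.43% in WT, a log2 change of 1.27 (SE 0.23, edgeR's quasi-likelihood test, adjusted p = 0.00297). Usage of exon 7 was 6.52, 5.59 and 6.60% against 4.64, 1.26 and 1.64%, a log2 change of 1.38 (SE 0.23, adjusted p = 0.000612). The genotypes did not overlap in either. RNA of FSD3 as a whole had a log2 change of 0.48. No read joined exon 5 directly to exon 7, or exon 6 to exon 8. Reads joining exon 5 to exon 8, past both exons, are not given here. Exon 5 (74 bases) had 134, 95 and 138 reads against 65, 37 and 54.

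The adjusted p of exon 6 was 0.136 without WT replicate 4 and 0.302 without WT replicate 5, that of exon 7 was 0.075 without WT replicate 5, and both were 1 by DESeq2. Without WT replicate 2 the log2 changes were 2.17 and 2.16, and against the neighbouring exons alone they were 0.30 and 1.04 and did not pass (edgeR's quasi-likelihood test, adjusted p = 1 and 0.672).

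The matching exons of the other iron superoxide dismutases were read after those of FSD3 were seen. In FSD1 (AT4G25100), exon 8 (27 bases) had 1126, 927 and 1359 reads in acinus-2 pnn against 1113, 1515 and 1650 in WT, with no skipping read. In FSD2 (AT5G51100), exon 7 (27 bases) had 7, 32 and 56 against 30, 52 and 56, with 2, 0 and 7 skipping reads against 0, 0 and 0. Acinus-2 pnn replicate 6 was the low library there, in the direction opposite to FSD3, and usage of these exons was not called.

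Exon 2 (45 bases) of AT1G01100, which codes for the ribosomal stalk protein P1, had 24, 17 and 22 reads in acinus-2 pnn against 4, 6 and 7 in WT. Its usage was 0.48, 0.38 and 0.42% against 0.11, 0.12 and 0.15%, without overlap, a log2 change of 1.74 (SE 0.34, edgeR's quasi-likelihood test, adjusted p = 0.00961). Skipping reads were 716, 650 and 752 against 567, 746 and 704, so the exon was rare in both genotypes. It is the first exon of 1 annotated transcript, and no read joined it to exon 1. DESeq2 gave an adjusted p of 0.0676, and without WT replicate 2, 4 or 5 or acinus-2 pnn replicate 6 the adjusted p by edgeR was 0.0505 to 0.109.

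The 9-base exon 4 of ANT (AT4G37750) had 2, 26 and 5 reads in acinus-2 pnn against 0, 0 and 0 in WT, and no skipping read in any library. Acinus-2 pnn replicate 7 held most of them. The exon reached the minimum of 10 reads through acinus-2 pnn alone, so it had to differ to be tested, and its call and fold support no rise. Outer junctions had 34, 37.5 and 53.5 reads against 20, 32 and 36.5, so that joins of the exon were fewer than those around it in all 6 libraries. Over the group, acinus-2 pnn held 33 reads of the exon, and 7 without replicate 7, which is below the minimum of 10. Usage of the exon passed edgeR's quasi-likelihood test with all 6 libraries (adjusted p = 0.0402). By the same test it did not pass without acinus-2 pnn replicate 7 (0.734) or without WT replicate 2 (0.184), 4 (0.325) or 5 (0.295).

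**Figure D4:**
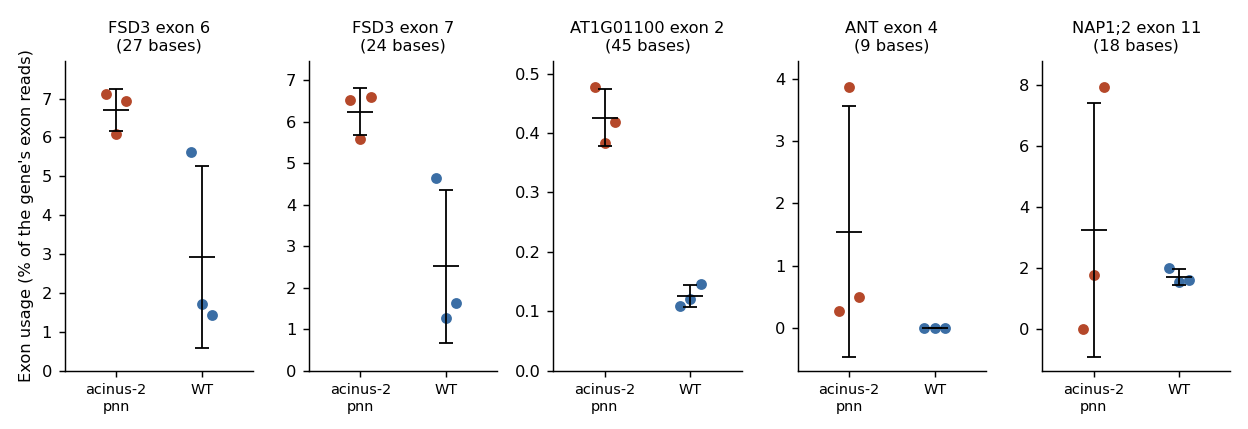
Exon reads as a percent of the gene's exon reads (y axis) for exons 6 and 7 of FSD3, exon 2 of AT1G01100, exon 4 of ANT and exon 11 of NAP1;2, with acinus-2 pnn left of WT, points for libraries, bars for the mean and whiskers for the SD (n = 3). In FSD3 exon 6 the acinus-2 pnn libraries lay at 6.10 to 7.11% and the WT libraries at 1.43 to 5.64%.

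Of the 19 internal exons of exactly 9 bases, 16 lay in the invertase and AP2-domain lists, and 5 had 10 or more reads. Of the 8 invertase genes, 6 held such an exon, and 3 of these exons passed. Exon 2 of AT1G12240, a vacuolar invertase, was joined to exon 3 by 4, 5 and 17 reads in acinus-2 pnn against 9, 11 and 6 in WT, that of AT1G62660 by 10, 8 and 10 against 17, 10 and 8, and that of the cell wall invertase AT3G13790 by 10, 7 and 5 against 4, 9 and 8. None of the 3 had a read joined to exon 1 or a skipping read. The genotypes overlapped in all 3. Their genes were deeply read, with 4890 reads in acinus-2 pnn against 4295 in WT for AT3G13790, so few of the reads of these genes reached the 9-base exon.

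The letters of these exons fell into the 2 families. Read on the strand of the gene, ATCCNAANG was matched by 6 of the 19 exons of 9 bases, all 6 of the invertase list. TNTANNTNG was matched by 11 of 19, of which 10 were of the AP2-domain list. The other was exon 5 of AT2G41710, a gene not on the list, with the same letters as the exon of WRI4. Both patterns describe the letters of these same exons, so their match to the lists is no test. No exon can hold both, since the first letters differ. The opposite strand was not searched.

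The 17 AP2-domain genes held 25 short internal exons, of which 17 had 10 or more reads. Besides the 9-base exon of the ANT type, AP2 itself (AT4G36920), which specifies flower organs, and its relatives TOE2 (AT5G60120), TOE3 (AT5G67180), SMZ (AT3G54990), SNZ (AT2G39250) and RAP2.7, mostly repressors of flowering, each held a neighbouring pair of 26 and 31 bases. No exon of these pairs had a read joining its 2 direct neighbours. Reads past both exons of a pair are not given here. In RAP2.7 the 26-base exon had 103, 86 and 108 reads in acinus-2 pnn against 93, 125 and 118 in WT, and the 31-base exon 101, 84 and 110 against 89, 122 and 130. In SMZ the 26-base exon had 18, 15 and 18 against 4, 4 and 4 reads, in a gene whose RNA rose with a log2 change of 1.38 (edgeR, adjusted p = 4.45e-07), and usage of the exon did not pass (log2 change 0.66, edgeR's quasi-likelihood test, adjusted p = 0.977). No exon of the list other than that of ANT was called. Exon 2 (38 bases) of APC11 (AT3G05870), a subunit of the anaphase-promoting complex, was joined to exon 1 by 7, 5 and 7 against 3, 6 and 3 reads and was not called.

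The shortest exons with 30 or more joining reads were the 9-base exons of AT1G12240, AT1G62660, AT3G13790 and ANT, the 11-base exon 16 of VLN1 (AT2G29890), an actin-bundling villin, and the 15-base exon 5 of AT2G47960. Exon 3 of CCD1 and exon 59 of the DNA damage kinase gene ATM (AT3G48190) also have 15 bases and come after it by gene number. VLN1 exon 16 was joined to exon 17 by 1, 1 and 3 reads in acinus-2 pnn against 10, 8 and 7 in WT, without overlap. Usage of it had a log2 change of −1.33 that did not pass (edgeR's quasi-likelihood test, adjusted p = 0.951), beside a log2 change of −0.90 for the gene.

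Introns next to short exons were tested for retention, as intron reads against the reads of the 2 neighbouring exons. Of 5227 such introns 1482 could be tested. Retention rose in acinus-2 pnn in 8 (0.540%), against a background of 0.887% of 25492 introns tested, and fell in 1 (0.0675%), against a background of 0.0588%. A call needed an adjusted p under 0.05 in edgeR's quasi-likelihood test, a fold above 2, an intron RPKM (reads scaled to intron length and library depth) above 1 and an intron depth above 5% of the exon depth. Of the 8, 5 lay before the short exon and 3 after it, and 1 was a gap of 14 bases, in AT1G01100. DESeq2 called 0 in either direction, and 142 of the 1482 (9.58%) had an unadjusted p under 0.05, against 2829 of all introns tested (11.1%). The median log2 change of retention was −0.10 beside short exons and −0.03 over all introns tested.

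The 4 largest rises rested on few intron reads. Intron 3 of CCD1, after the 15-base exon, had 3, 6 and 8 reads in acinus-2 pnn against 0, 1 and 2 in WT, which is 5.50 ± 1.70% against 0.477 ± 0.481% of the exon reads (SD, n = 3 each), a log2 change of 3.42 (SE 0.80, edgeR, adjusted p = 0.013). Intron 20 of AT4G38350, before a 38-base exon, had 6, 2 and 5 against 1, 2 and 2 reads (log2 2.86, SE 0.76, edgeR, adjusted p = 0.0425). Intron 8 of SNC4 (AT1G66980), a receptor-like kinase gene, before a 27-base exon, had 11, 8 and 10 against 2, 4 and 2 reads (log2 2.28, SE 0.58, edgeR, adjusted p = 0.0316). Intron 8 of HEMG2 (AT5G14220), a protoporphyrinogen oxidase of haem synthesis, after a 37-base exon, had 13, 12 and 24 against 7, 6 and 2 reads (log2 2.11, SE 0.48, edgeR, adjusted p = 0.0113). As a percent of exon reads, the genotypes did not overlap in any of the 4. They were chosen by a test of the same libraries, so this adds no support.

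Better covered were intron 5 of AT4G30690, before a 34-base exon, with 26, 31 and 27 reads in acinus-2 pnn against 18, 20 and 20 in WT, and intron 12 of AT4G10060, after a 39-base exon, with 35, 46 and 42 against 28, 33 and 36. Their intron reads were 56.4 ± 18.2% against 14.7 ± 0.813%, and 54.1 ± 2.97% against 18.9 ± 2.34%, of the exon reads (SD, n = 3 each). Both passed whichever single library was left out, and in both genes the exon reads were lower in acinus-2 pnn, with gene log2 changes of −1.37 and −1.43. Intron 8 of VAD1 (AT1G02120), before a 41-base exon, had 94, 76 and 88 against 40, 48 and 31 reads, with an adjusted p by edgeR of 0.0876 without WT replicate 5. Intron 1 of AT1G01100, a 14-base gap between exon 1 and the 45-base exon above, had 21, 13 and 15 against 2, 5 and 4. The exon directly beside it had 24, 17 and 22 against 4, 6 and 7 reads, with no read joined to exon 1. This retention call and the usage call of that exon can thus rest on the same reads, and are not separate results.

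The 1 fall was intron 1 of AT1G05070, before a 24-base exon, with 13, 11 and 22 reads in acinus-2 pnn against 34, 36 and 40 in WT, 13.5 ± 3.37% against 34.4 ± 2.90% of the exon reads (SD, n = 3 each; log2 change −1.31, SE 0.34, edgeR, adjusted p = 0.0318). Without any 1 library the adjusted p of this fall by edgeR was 0.0575 to 0.19. For CCD1 it was 0.0514 to 0.159 without acinus-2 pnn replicate 7 or 12 or WT replicate 2 or 4, for HEMG2 0.0504 to 0.193 without acinus-2 pnn replicate 7 or 12 or WT replicate 4 or 5, and for AT4G38350, SNC4 and AT1G01100 0.0561 to 0.231 without any 1 library.

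**Figure D5:**
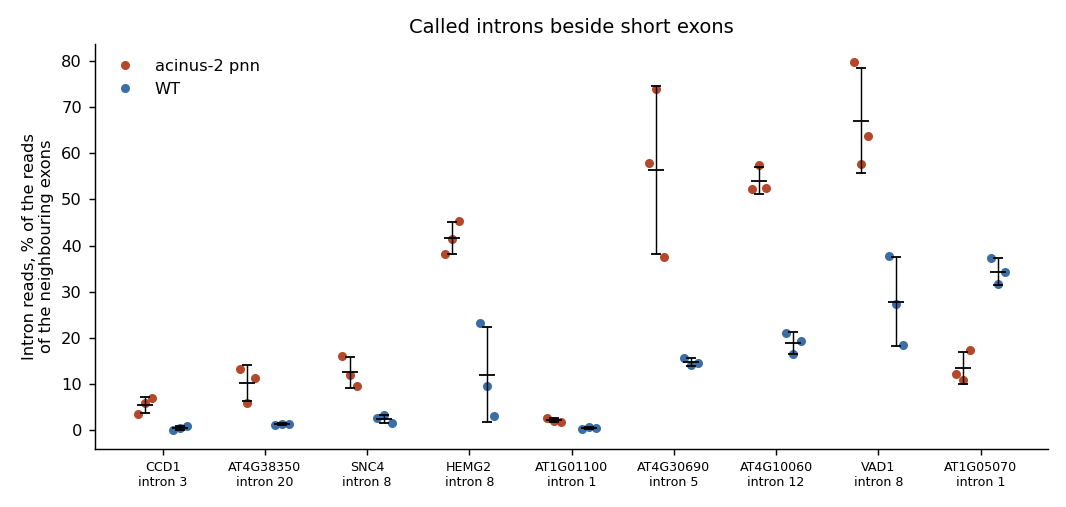
Intron reads as a percent of the reads of the 2 neighbouring exons (y axis) for the 9 introns called next to short exons (x axis), with a point per acinus-2 pnn and WT library, a bar for the mean and whiskers for the SD (n = 3). The genotypes do not overlap in any of the 9, which were chosen by a test of the same libraries. Intron 1 of AT1G05070 is the 1 with acinus-2 pnn below WT.

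Other splice positions at the junctions of short exons were tested against the most used position. Of 156 junctions tested, 0 were called higher (background 0% of 3723) and 0 lower (background 0%) by edgeR's quasi-likelihood test or by DESeq2, and 7 (4.49%) had an unadjusted p under 0.05, against 203 of 3723 (5.45%).

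RNA levels of the 2169 genes that hold the short exons were compared as background to the splicing. By edgeR's quasi-likelihood test, with an adjusted p under 0.02 and a fold above 2, 43 rose in acinus-2 pnn (1.98%), against a background of 4.29% of 20962 genes, and 90 fell (4.15%), against 4.88%. The largest rise among them was FLC (AT5G10140), the repressor of flowering, with 526, 571 and 706 reads in acinus-2 pnn against 20, 25 and 24 in WT (log2 4.76, SE 0.12, adjusted p = 1.62e-10). FLC holds 42-base exons 5 and 6, and so do its relative MAF5 (AT5G65080), which rose by a log2 change of 3.95, and, as exons 6 and 7, the MADS-box gene AGL14 (AT4G11880), which fell with 8, 8 and 11 against 153, 255 and 254 reads. Other rises were GMI1 (AT5G24280), induced by DNA damage and holding 3 short exons, at 2.90, and the acetyl-CoA carboxylase ACC2 (AT1G36180) at 2.78. Falls included the potassium transporter HAK5 (AT4G13420) at −2.28 and glutamine synthetase GLN1;4 (AT5G16570) at −2.04.

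By RNA level, of 13 factors that bind exon ends or the exon junction, 1 fell and 0 rose. AtACINUS, a mutated gene, had 751, 720 and 868 reads in acinus-2 pnn against 1858, 2593 and 2608 in WT (log2 change −1.53, SE 0.05, edgeR, adjusted p = 1.02e-09). AtPININ, also mutated, had 1751, 2073 and 2215 against 999, 1258 and 1262, below the fold needed for a call (log2 change 0.84), and a T-DNA insertion need not lower reads over the whole gene. U1-70K, a protein of the U1 particle, had a log2 change of −0.36 and U2AF65A, which binds ahead of exons, 0.21. Neither reached a fold of 2. SR45 and AtSAP18, the partners of both mutated proteins, each hold 1 short exon, and PTB3 holds 3. RNA of SR45 and AtSAP18 was not called (log2 changes 0.12 and 0.0091). Their proteins, which RNA levels do not measure, were strongly reduced in the double mutant in the study's own protein measurements.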

How the data were processed

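RNA of 3 acinus-2 pnn and 3 WT seedling libraries was sequenced by the authors, who call the libraries biological replicates. The labels name the RNeasy and NEBNext kits. RACKJ at default settings, on the TAIR10 genome, gave the authors these splicing tables, while their processing notes name STAR and DESeq2. Which mapping RACKJ read, its version and its gene models are not given in the sources used here. The deposited exon, intron and gene tables hold expected counts, in which a read that counts for several genes is split. The deposited junction tables hold the count of spliced reads. The deposited tables also give exon and intron lengths in bases, a fraction for reads shared between genes (not used here) and gene RPKM, which the authors scaled to exon length and mapped reads.

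Exon numbers were turned into transcript order, and 120217 of 120956 introns of genes with 2 or more exons were placed on TAIR10.1 (RefSeq), where 97.9% equalled an annotated intron. Expected counts were rounded. Tests used edgeR 4.0.16 in R 4.3.3 (quasi-likelihood, Benjamini-Hochberg over all features tested), with 1 term per library, 1 for the kind of read and 1 for kind by genotype, or TMM and genotype alone for genes. The edgeR tests were also run on simulated counts with known changes, and the other steps were not. Alternatives were DESeq2 1.42.0, other read minimums, other comparison reads, other length limits, and each library left out. Depth was 18890178 to 27622690 reads on genes per library. Rates and limits of 3 counts cover counting error only.

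The members and gene lists were chosen with earlier results of these data known. Named exons were those called in a test, the 4 largest changes up and down in skipping, the 6 shortest with 30 or more joining reads, the 6 with the highest skipping rate, and those of the invertase, AP2-domain and APC11 lists. Called introns and 13 splicing factors were named as well. Exons outside the rule are said to have been chosen after their values were seen.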

Additional observations from a re-analysis of the deposited data

How the results depend on the processing

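No paired analysis was possible because the replicate numbers of acinus-2 pnn (6, 7 and 12) and WT (2, 4 and 5) are not shared. No called value changed direction under the alternatives run, and counts of calls were the least stable values. Short exons with less skipping in acinus-2 pnn, 2 in all, numbered 0 with DESeq2, 0 at a minimum of 5 skipping reads, 0 with skipping reads over any pair of exons, 1 with joins to the exon before alone, 1 among exons joined on both sides (chosen after seeing the data) and 0 to 3 without any 1 library. Short exons with higher usage, 4 in all, numbered 0 with DESeq2, 1 against the neighbouring exons and 1 to 5 without any 1 library, and those with lower usage, 0 in all, numbered 0 to 1 without any 1 library. Leaving out acinus-2 pnn replicate 7 and WT replicate 2 together, chosen after seeing the data, gave 4. Introns with higher retention, 8 in all, numbered 0 with DESeq2, 3 against spliced reads over the intron and 3 to 5 without any 1 library. Introns with lower retention, 1 in all, numbered 0 with DESeq2, 0 against spliced reads, 6 at a minimum of 30 intron reads and 0 without any 1 library. The cause of these shifts was not tested.

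The share of short exons skipped above 5%, 3.61% in acinus-2 pnn and 3.42% in WT, was 8.82% and 8.78% up to 30 bases, 2.83% and 2.74% up to 51 bases, 3.48% and 3.15% with 30 or more junction reads, 4.35% and 4.04% with skipping reads over any pair of exons, and 1.52% and 1.24% among exons joined on both sides (chosen after seeing the data). Without any 1 library it was 3.52 to 3.60% in acinus-2 pnn and 3.24 to 3.36% in WT. Counts of host genes and of other splice positions stayed within 1.5 times their value. For single exons and introns that were called, 82 of the 138 repeats kept the direction and lost the call. Depth limits the skipping test to the 74 short exons with 10 or more skipping reads, and 43 short exons had no joining read at all.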

Other observations

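Exons under 8 bases left no read in the exon table, and a second junction table that counts spliced reads with any number of bases on each side showed some of them. Of 22 such exons, 15 had joining reads there, 390 in acinus-2 pnn and 244 in WT. These reads can rest on very few bases on 1 side of a junction, so their place is less sure than in the main table. The largest number, 192 in acinus-2 pnn and 89 in WT, came from the 4-base exon 5 of RNS2 (AT2G39780), a vacuolar ribonuclease that recycles RNA, at chr2:16592241-16592244 of TAIR10.1, shown with the exon in capitals.
RNS2 AT2G39780 exon 5: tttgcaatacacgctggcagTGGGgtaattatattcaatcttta
It was joined by 74, 44 and 74 reads in acinus-2 pnn against 14, 68 and 7 in WT, and skipped by 6, 2 and 5 against 0, 5 and 7. WT replicate 4 lay among the acinus-2 pnn libraries and the other WT libraries far below, and no test was run.

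The 6-base exon 2 of AT5G18230, a NOT-family component of the CCR4-NOT complex, was joined by 21, 8 and 32 reads in acinus-2 pnn against 15, 6 and 2 in WT, beside 61, 62 and 66 against 48, 90 and 89 skipping reads. The 6-base exon 5 of AT5G14030 was joined by 14, 22 and 12 against 15, 0 and 18 reads with no skipping read, and the 3-base exon 2 of PBS2 (AT5G51700), a co-chaperone of disease resistance proteins, by 3, 1 and 7 against 5, 5 and 6. The genotypes overlapped in all 3. At the other end, the exon of 1 base listed in AT4G32470 had no joining read, against 385, 326 and 459 skipping reads in acinus-2 pnn and 243, 437 and 466 in WT.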
